A study of Mus musculus with 6 samples.

Results

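The endoderm transcription factors of the FOXA, GATA and HNF4 families were compared between esophageal and stomach organoids of the mouse. The members were Gata4, Gata5, Gata6, Foxa1, Foxa2, Foxa3, Hnf4a and Hnf4g, taken by gene name among the non-control features of the array. These 8 genes, of 34298 gene names, had 9 features of 55681, since Foxa2 had 2 and every other member had 1. Organoids are epithelial structures grown from tissue stem cells in a gel. Esophageal organoids form a squamous, stratified epithelium and stomach organoids a columnar one. Mice 1, 2 and 4 each gave both tissues, and RNA of their passage 0 organoids was hybridized to single-color Agilent mouse arrays, 3 per tissue. The harvest was on day 8, or on day 7 for stomach mouse 4. In the study's methods, wild-type mice were C57BL/6, stomach organoids were grown from glands of the corpus in a medium with WNT3A and R-spondin1, and the esophageal medium held neither. Gastrin was listed for the stomach medium only and forskolin for the esophageal medium only. Esophageal organoids were started from dissociated cells. The study also grew esophageal organoids with WNT3A and R-spondin1, and the sample titles name no medium. The titles of all 6 samples carry the word Control, and the labels name no strain, age, transgene or drug. By these methods, tissue, medium and starting material change together and cannot be told apart in these arrays.

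FOXA factors are pioneer factors, which bind their sites in closed chromatin and open it for others, and in the embryo they mark the endoderm from which gut, liver, lung and pancreas form. GATA4, GATA5 and GATA6 are zinc finger factors of the same germ layer and of the heart. HNF4A and HNF4G are nuclear receptors that drive genes of lipid metabolism and of epithelial differentiation in liver and gut.

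Values are the authors' log2 signals, background corrected and quantile normalized. Differences are esophagus minus stomach, so a negative value means a higher signal in stomach organoids. The tissue labels were checked against markers. Of 10 squamous markers, 8 were higher in esophageal organoids, among them Krt5 and Krt14, keratins of the basal layer. Ivl, of terminal differentiation, differed by 0.05 and did not pass. Trp63, the squamous master regulator, was higher in stomach by the brightest of its 4 features (-1.22, adjusted p 0.0249), a call that was lost without stomach array 1 or 2 or esophagus array 1 or 2, with an offset of 50 and with the scanner software's processed signal. The other 3 features of Trp63 were higher in esophagus by 6.06, 6.61 and 8.55, as was the average of all 4, by 5.0 (adjusted p 4.31e-06). Of 14 columnar and gastric markers, 12 were higher in stomach organoids, among them Tff1, Gkn2 and Krt8. Well above background on an array were 45.5% to 51.1% of its non-control spots. Slide 1 held 3 stomach and 2 esophageal arrays and slide 2 held only the esophageal array of mouse 4, so the fit within slide 1 is the fit without that array. A lower signal from fewer cells of a type cannot be told apart from less RNA per cell.

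In stomach organoids 7 of the 8 genes were higher, by 8 of the 9 features, at an adjusted p under 0.05 in limma. None was higher in esophageal organoids. Gata5 did not pass. Over the whole array 6.22% of features were higher in stomach and 5.94% in esophagus, and by the brightest feature of each gene name the shares were 7.7% and 7.15%. Under the rule in the study's methods, an unadjusted p under 0.05 with a change of at least 1.5-fold, 8 member features again passed toward stomach and 0 toward esophagus. The shares of all features under that rule were 8.85% and 9.28%. Hnf4g met the 1.5-fold limit by its measured means only, since its lower bound is 1.45-fold. The 3 stomach arrays lay above the 3 esophageal arrays for 8 of the 9 features, against 13.4% of all features with a value on every array. The median difference of the 9 features was -5.99, against 0.02 over all features. For a single gene, an exact two-sided permutation test over 3 against 3 arrays cannot give a p below 0.1, so the tests rest on the fit across all features. Of the 8 features that passed, 7 had no esophageal array with a signal well above background. Their fold differences, written below as at least a value, use a floor. Each esophageal array takes the higher of the feature's own value and the lowest value of a feature well above background there. They are lower bounds for the measured means only and leave out sampling error. For all 7 features the confidence interval of the measured fold reached below the bound, as for Gata6 (bound 110, interval from 74.7). For Gata6 and the brighter Foxa2 feature (182) the bound equals the measured fold. The floor does not cap an undetected signal, since Gata6 lay above it on every esophageal array. The bounds are on the scale of the authors' log2 table. With an offset of 50 the log2 differences were smaller, -6.83 for Gata4, -5.92 for Gata6, -4.54 and -6.50 for Foxa2, -4.80 for Foxa3, -8.70 for Hnf4a and -0.45 for Hnf4g, and all 8 features still passed.

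**Figure D1:**
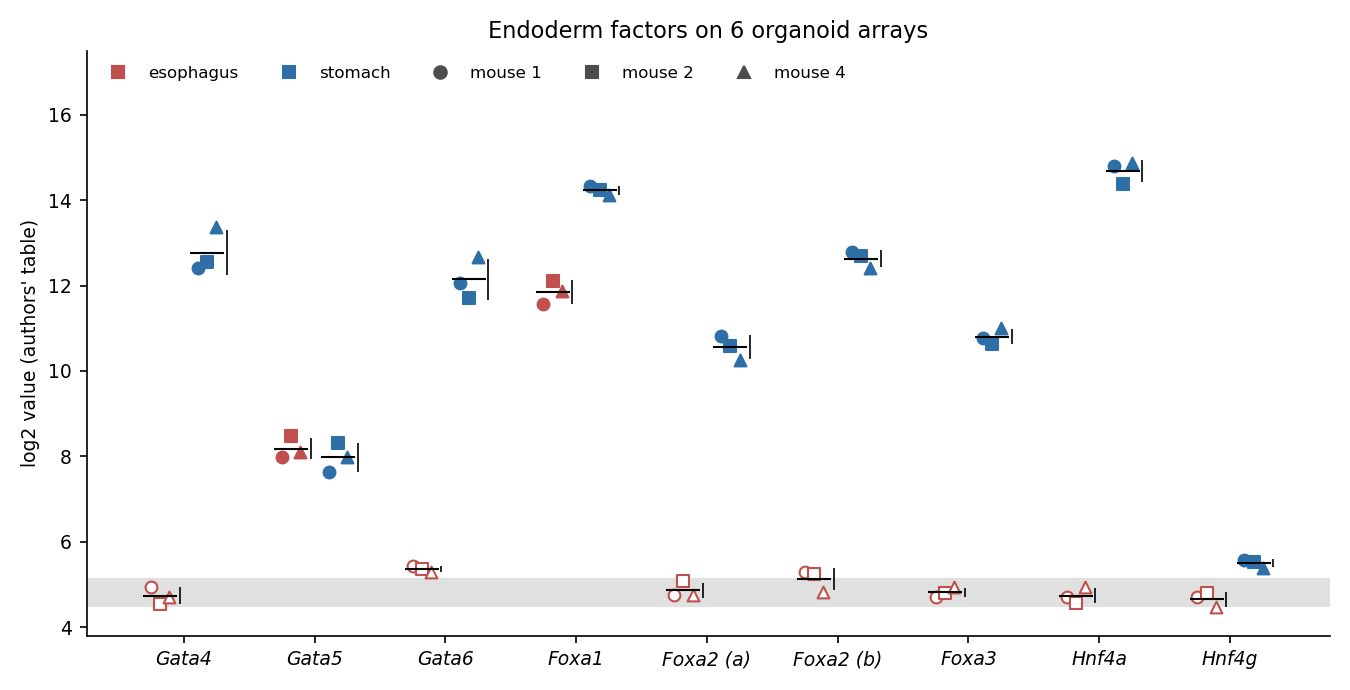
Log2 value of each member feature (vertical axis) on the 6 arrays, esophagus red and stomach blue, with the mouse given by the marker shape. Horizontal lines are means, vertical lines 1 SD (n = 3), hollow markers a tissue with 0 of 3 arrays well above background, and the gray band the range over arrays of the lowest value well above background. Foxa2 (a) and (b) are its 2 features, A_55_P2067533 and A_55_P2134236. The tissues overlap only for Gata5, and Foxa1 is the other gene with filled markers in both.

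Among the FOXA factors, Foxa1 was detected in both tissues and was higher in stomach organoids. Foxa2 and Foxa3 rose from background in esophageal organoids to clear signal in stomach organoids. Foxa1, a pioneer factor of many endodermal and glandular epithelia, had log2 values of 11.56, 12.11 and 11.88 in esophageal organoids of mice 1, 2 and 4 and of 14.34, 14.24 and 14.13 in stomach organoids. All 6 values were well above background and the tissues did not overlap. Means were 11.85 ± 0.27 and 14.23 ± 0.11 (SD, n = 3), a difference of -2.38 with an SE of 0.18 and a limma adjusted p of 9.17e-05. That is 5.21-fold higher in stomach, with a 95% confidence interval from 3.91 to 6.95. The feature, A_55_P2053933, lies on the minus strand of chromosome 12 at 58641764 to 58641823 of mm9, the build of the coordinates in the files.

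Foxa2, the earliest FOXA gene of the embryonic gut, was read by 2 features of chromosome 2, minus strand, that share 5 bases. On the first, A_55_P2067533 (147868614 to 147868673), the esophageal values were 4.76, 5.07 and 4.75 and the stomach values 10.82, 10.59 and 10.26. On the second, A_55_P2134236 (147868669 to 147868728), they were 5.29, 5.25 and 4.83 against 12.79, 12.69 and 12.42. Both features put all stomach arrays far above all esophageal arrays, and neither was above background in esophagus. The differences were -5.70 (SE 0.19, adjusted p 1.1e-06) and -7.51 (SE 0.19, adjusted p 2.93e-07), or at least 48.4-fold and at least 182-fold. Since the features overlap on 1 transcript, they are not separate evidence.

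Foxa3, the FOXA gene best known from the liver and the gut, had esophageal values of 4.71, 4.80 and 4.93 and stomach values of 10.77, 10.64 and 11.00. No esophageal array was above background and the stomach arrays lay close together. The difference was -5.99 (SE 0.16, adjusted p 3.69e-07), at least 55.0-fold. Its feature, A_52_P64707, lies at 19599053 to 19599112 on the minus strand of chromosome 7.

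Hnf4a, the nuclear receptor at the head of the hepatic and intestinal programs, was at background in esophageal organoids and bright in stomach organoids. Its values were 4.71, 4.57 and 4.93 in esophageal organoids and 14.79, 14.39 and 14.86 in stomach organoids. The difference was -9.94 (SE 0.18, limma adjusted p 8.28e-08), at least 810-fold, with 0 of 3 esophageal arrays above background. The feature, A_55_P1959633, lies on the plus strand of chromosome 2 at 163398548 to 163398607. Hnf4g, the paralog known from intestine, kidney and pancreas, was barely above background in stomach organoids, with 5.58, 5.52 and 5.39 against 4.71, 4.80 and 4.46 in esophageal organoids. Again the arrays of the tissues did not overlap, but the distance was small. The difference was -0.84 (SE 0.15, adjusted p 0.0105), at least 1.45-fold, on feature A_55_P1980242 at 3657265 to 3657324 of chromosome 3, plus strand. Without stomach array 1 its adjusted p was 0.0582, and without stomach array 2 it was 0.0504. From scanner intensities it was -0.90 with an offset of 16 and -0.45 with an offset of 50, and it was -2.51 with the scanner software's processed signal scaled to the 75th percentile, where background and normalization change together.

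**Figure D2:**
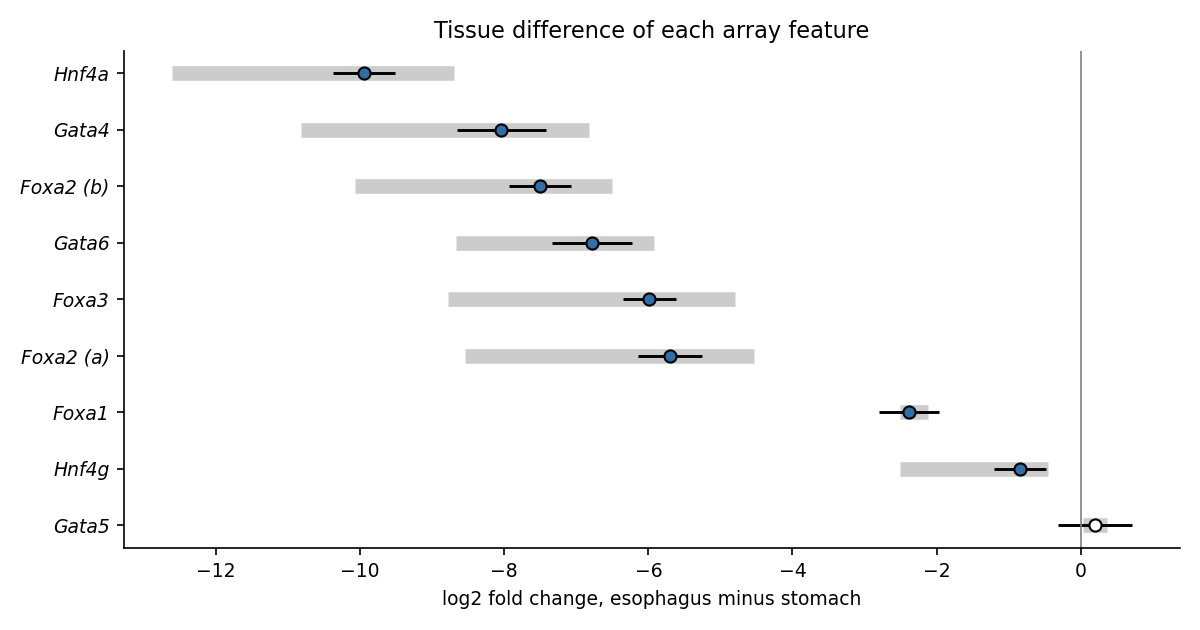
Log2 fold change, esophagus minus stomach (horizontal axis), of each member feature. Points are limma estimates, filled where adjusted p is under 0.05, black lines 95% confidence intervals, and gray bars the range over the alternative settings. The confidence interval of Gata5 alone spans 0, from -0.31 to 0.71. The gray bar of Hnf4g runs from -2.51 to -0.45 and that of Hnf4a from -12.61 to -8.70.

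Start sites of the members were searched for words bound by the 3 families, since most members differed in the same direction. RefSeq promoter windows of assembly GRCm38.p6, from 250 bases before to 50 bases after a start, were found for 5 members, 8 windows in all. They were searched on both strands for AGATAA, a word bound by the GATA factors, for TGTTTAC, bound by FOXA factors, and for CAAAGTCCA, bound by HNF4, none of which contains another. Of all 32851 windows, 11.2% hold the first, 3.65% the second and 0.475% the third. Among the 8 windows of the members, 2 hold AGATAA, 1 holds TGTTTAC and 0 hold CAAAGTCCA. The 3 windows shown were chosen because they hold a match. They are given 5′ to 3′ on the strand of the gene, with the match in capitals. In Foxa1 (chr12:57546062-57546361) TGTTTAC is read on the other strand, 141 bases before the start. AGATAA lies 183 bases before a start of Foxa2 (chr2:148045415-148045714) and 52 bases before a start of Hnf4a (chr2:163506607-163506906). A match describes these letters only, and binding was not measured here. The windows of Foxa3 and Gata5, and the remaining windows of Foxa2 and Hnf4a, held no match to the 3 words.
Foxa1: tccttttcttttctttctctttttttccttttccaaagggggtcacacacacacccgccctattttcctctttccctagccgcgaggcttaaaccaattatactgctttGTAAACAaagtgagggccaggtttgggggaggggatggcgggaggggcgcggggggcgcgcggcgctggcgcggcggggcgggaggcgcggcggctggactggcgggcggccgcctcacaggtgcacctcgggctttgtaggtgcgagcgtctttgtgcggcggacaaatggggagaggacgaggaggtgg
Foxa2: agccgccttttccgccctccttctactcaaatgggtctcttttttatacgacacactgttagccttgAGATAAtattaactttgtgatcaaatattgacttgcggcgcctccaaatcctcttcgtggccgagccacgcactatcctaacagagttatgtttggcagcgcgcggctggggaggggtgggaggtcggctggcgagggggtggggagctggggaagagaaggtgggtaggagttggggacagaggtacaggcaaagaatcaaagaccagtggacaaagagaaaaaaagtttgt
Hnf4a: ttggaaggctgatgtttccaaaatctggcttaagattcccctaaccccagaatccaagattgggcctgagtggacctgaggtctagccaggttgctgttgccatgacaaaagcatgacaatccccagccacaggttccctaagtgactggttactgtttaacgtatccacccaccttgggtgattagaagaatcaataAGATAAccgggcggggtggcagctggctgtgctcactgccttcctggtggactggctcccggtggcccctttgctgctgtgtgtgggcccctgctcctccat

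Gata5 was the one member whose tissues overlapped. This GATA factor is known from the heart and from gut endoderm, with a role in the differentiated epithelium of the intestine. Its feature, A_55_P2046867, lies on the minus strand of chromosome 2 at 180059867 to 180059926. Esophageal organoids of mice 1, 2 and 4 had 7.98, 8.47 and 8.10 and stomach organoids 7.64, 8.32 and 7.99, all well above background. Within each mouse the esophageal value was the higher one, by 0.34, 0.16 and 0.11, and mouse 2 had the highest value in both tissues. The difference was 0.20 (SE 0.22, adjusted p 0.666), and its 95% confidence interval ran from -0.31 to 0.71. In fold terms that leaves stomach over esophagus anywhere from 0.61 to 1.24.

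The letters of the Gata5 feature set it apart from those of the other members. Of its 60 bases, stretches of 16 recurred in 11 features of other genes, while the other member features shared such a stretch with 0 or 1. The longest stretch shared with a feature of another gene was 19 bases, against 14 to 16 for the others. In the promoter windows, 47 of 32851 (0.143%) held 16 consecutive bases of it, against 0 to 2 for the others. Bases 23 to 52 of the feature are shown for that reason, with the 16 bases in capitals (bases 30 to 45) that also occur in 7 features of other genes and 35 promoter windows. As background, this stretch reads like part of the mouse B1 short interspersed repeat.
Gata5 feature: tgtagctCTGGCTGTCCTGGAACtcattat

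All 11 features that share 16 bases with the Gata5 feature were well above background on all 6 arrays, as 38.4% of all features were. Of these 11, 0 were higher in stomach and 0 in esophagus, and their median difference was -0.35. Whether RNA of such repeats contributes to the Gata5 signal was not tested.

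**Figure D3:**
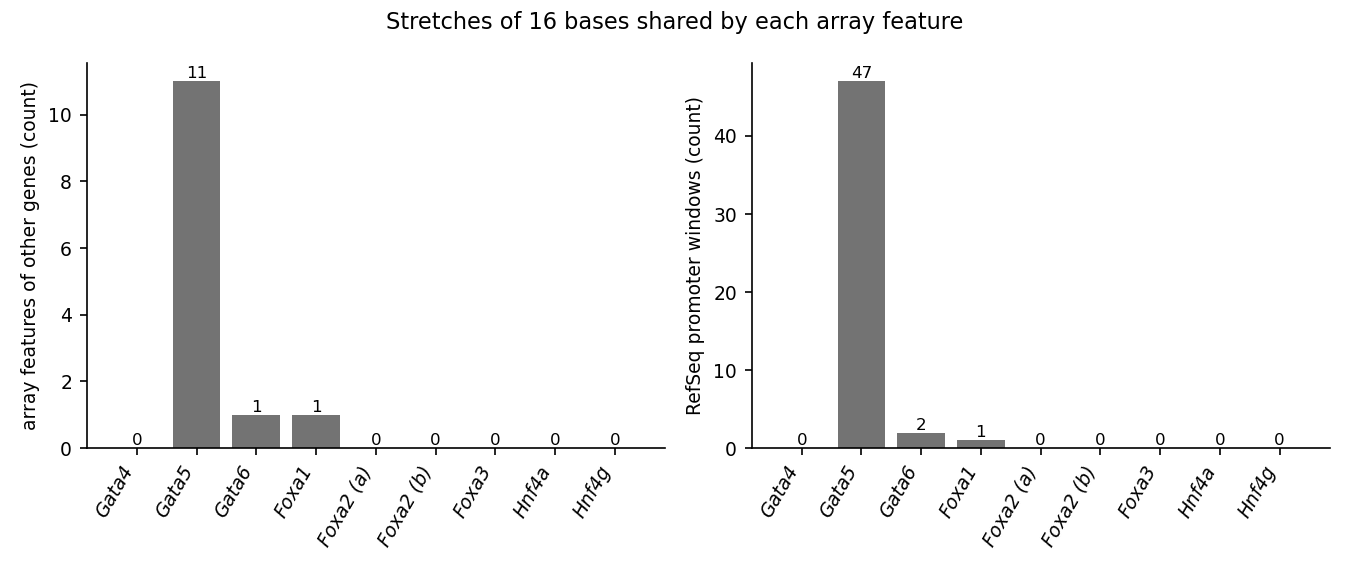
Number of array features of other genes (left) and of RefSeq promoter windows (right) that share at least 16 consecutive bases with each member feature. Gata5 shares them with 11 features and 47 windows, and each other member feature with 0 or 1 features and 0 to 2 windows.

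Gata4 and Gata6, the GATA genes of the stomach and the small intestine, were both much higher in stomach organoids. Gata4, also a cardiac factor, had log2 values of 4.95, 4.55 and 4.71 in esophageal organoids of mice 1, 2 and 4, and of 12.40, 12.55 and 13.37 in stomach organoids. Its esophageal values were all at background, and stomach mouse 4 was the highest array. The difference was -8.04 (SE 0.27, limma adjusted p 1.05e-06), at least 225-fold. The feature, A_55_P2028894, lies at 63817858 to 63817917 on the minus strand of chromosome 14.

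Gata6, needed for endoderm from its first steps, had 5.44, 5.37 and 5.30 in esophageal and 12.07, 11.71 and 12.66 in stomach organoids. Stomach mouse 4 was again the highest, and the esophageal arrays differed by little and were not well above background. The difference was -6.78 (SE 0.24, adjusted p 1.47e-06), at least 110-fold. The feature, A_51_P411917, is on the plus strand of chromosome 18 at 11085039 to 11085097.

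The members did not vary alike among the stomach arrays. Stomach mouse 4, the day 7 sample, was above the mean of mice 1 and 2 by 0.89 for Gata4 and 0.77 for Gata6, by 0.29 for Foxa3 and by 0.27 for Hnf4a. It was below both for Foxa1 (-0.16), Foxa2 (-0.45 and -0.32 by its features) and Hnf4g (-0.16), and between them for Gata5. For Hnf4a, mice 1 and 2 themselves differed by 0.39, more than the offset of mouse 4. The middle 95% of 24434 features well above background on all stomach arrays ran from -1.24 to 1.1, so all members lay inside that range. This is 1 array, whose day and mouse cannot be told apart.

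Within each mouse, the esophagus minus stomach difference of Hnf4a was -10.07, -9.82 and -9.93 in mice 1, 2 and 4. That of Gata4 was -7.45, -8.0 and -8.65, and that of Gata6 was -6.64, -6.34 and -7.36. For Foxa1 it was -2.77, -2.13 and -2.24. For the second Foxa2 feature it was -7.49, -7.44 and -7.59. Every mouse gave the same direction for each of the 8 features that passed. Except for Foxa1, the esophageal side of these differences was not well above background. Their sizes are therefore not exact, and their spread between mice does not show how stable the differences are.

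Features within 50 kb of a member feature were read as neighbors. There were 16, under 14 gene names, of which 2 were higher in stomach, 2 in esophagus and 12 did not pass. Foxa2 and Hnf4g had none. Both features higher in stomach belonged to noncoding genes on the other strand from a GATA gene. Gata5os, 15354 bases from the Gata5 feature, had 5.04, 4.71 and 4.59 in esophageal and 6.12, 6.06 and 5.62 in stomach organoids. Only the stomach arrays were above background, and the tissues did not overlap. The difference was -1.16 (SE 0.20, limma adjusted p 0.00733), at least 1.95-fold, although Gata5 itself did not pass. The stomach values of Gata5os lay little above background. Calls of neighbor features were not traced through the alternative settings.

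The feature 1010001N08Rik, which RefSeq names Gata6os, lies 35895 bases from the Gata6 feature. Its esophageal values were 4.86, 4.46 and 4.65 and its stomach values 10.55, 10.11 and 8.68. The difference was -5.12 (SE 0.44, adjusted p 0.000188), at least 28.3-fold. Stomach mouse 4 was its lowest stomach array, where Gata6 had its highest. Array probes read 1 strand, and each of these genes was read from its own feature.

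**Figure D4:**
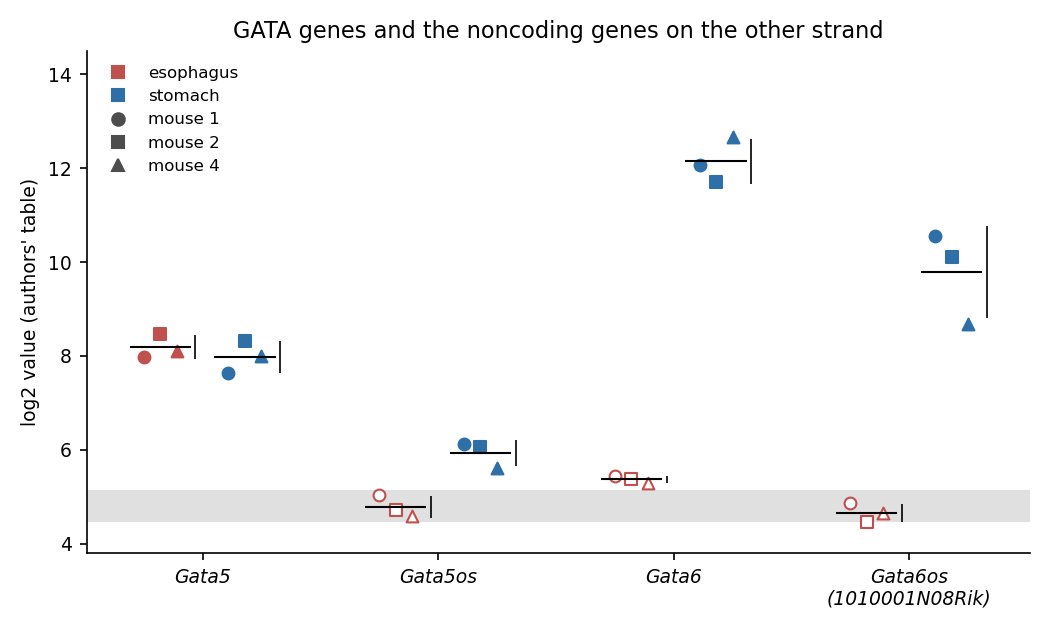
Log2 values (vertical axis) of Gata5, Gata6 and the noncoding genes on their other strand on the 6 arrays, with colors, markers, lines and gray band as in the plot of all members. Gata5os, Gata6 and Gata6os separate the tissues and Gata5 does not. Levels of different features are not comparable.

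Beside Hnf4a, Ttpal, named for its likeness to the tocopherol transfer protein, went the other way on 2 of its 3 features. Its brightest feature, A_52_P418665, had 11.53, 12 and 11.66 in esophageal and 10.19, 9.90 and 10.26 in stomach organoids, a difference of 1.61 (SE 0.18, limma adjusted p 0.000867). The other features differed by 0.90 (adjusted p 0.0249) and 0.13 (adjusted p 0.747). Next to Gata4, the DNA repair gene Neil2 differed by -1.01 (SE 0.30, adjusted p 0.0762) and Fdft1, of sterol synthesis, by -0.07. None of the 5 neighbors of Foxa3 and 3 of Foxa1 passed.

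The other GATA genes and their cofactors were called in both directions. Of 9 genes, 1 was higher in stomach, 2 in esophagus and 6 did not pass. The median difference was 0.26, against 0.03 over all gene names. For this list and those that follow, the shares over all gene names were 7.7% higher in stomach and 7.15% in esophagus. Zfpm1, a GATA cofactor also known as FOG1, was higher in stomach, with 10, 9.38 and 9.12 against 13.06, 12.94 and 12.96, a difference of -3.49 (adjusted p 4.7e-05). Trps1, a repressor with a GATA zinc finger, was higher in esophagus, with 8.89, 9.13 and 8.5 against 4.69, 4.6 and 4.99, at least 15.6-fold. The call of Gatad1 (0.55, adjusted p 0.0483) was the weak one: without any 1 of the 6 arrays, or with the mouse as a block, the esophageal count was 1. Gata3, a factor of stratified epithelia and T cells, differed by 0.87 and did not pass. Gata1, Gata2 and Zfpm2 were not well above background on any of the arrays.

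Among 22 liver-enriched and gut nuclear factors, 8 were higher in stomach, 1 in esophagus and 13 did not pass, with a median of -0.47. Ppargc1a, a coactivator of HNF4A and of mitochondrial genes, had 5.25, 4.72 and 4.99 in esophageal and 11.19, 10.83 and 10.99 in stomach organoids, at least 58.9-fold. Cebpa went the other way, with 11.39, 12.39 and 11.22 against 9.13, 9.43 and 9.54, 4.94-fold higher in esophagus (adjusted p 0.00214). Without esophagus array 4, the count higher in esophagus was 2.

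Other forkhead factors were called in both directions. Of 26 genes, 2 were higher in stomach (7.69%, against 7.7% of all gene names) and 6 in esophagus (against 7.15% of all gene names). The other 18 did not pass, and the median was 0.26. Foxq1 (-1.90, adjusted p 0.0119) and Foxp4 (-1.27, adjusted p 0.000563) were higher in stomach, 3.72-fold and 2.41-fold. Foxc1, with 9.67, 9.40 and 8.40 in esophageal and 5.59, 5.25 and 6.26 in stomach organoids, was higher in esophagus (adjusted p 0.000695), and 2 of its 3 stomach values were well above background. Foxn1, known from hair follicle and thymus epithelium, was at least 6.27-fold higher there. Without stomach array 1 or 2 the counts were 1 in stomach and 3 in esophagus.

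Most genes that textbooks give as targets of HNF4A and FOXA factors did not pass. Of 29 on the array, 7 were higher in stomach, 2 in esophagus and 20 did not pass, with a median of -0.15. Over all gene names, 7.7% were higher in stomach and 7.15% in esophagus. Agr2, a disulfide isomerase of mucous cells, had 4.94, 5.61 and 5.78 in esophageal and 14.67, 15.19 and 15.29 in stomach organoids (adjusted p 4.63e-07), and 2 of its 3 esophageal values were well above background. The apolipoprotein genes Apoc2, Apob and Apoa1 had fold bounds of 41.6, 34.4 and 33.6 toward stomach, while the other 6 of the 9 apolipoprotein genes in the list did not pass. Rbp2, a retinol carrier of enterocytes, was 16.5-fold higher in esophagus (adjusted p 0.000523), and Mttp, which loads lipid onto apolipoprotein B, was 2.23-fold higher (adjusted p 0.0268). Without stomach array 1 or 2 or esophagus array 2, or with the mouse as a block, the count higher in esophagus was 1. Of the 29 genes, 7 were not well above background on any of the 6 arrays, among them Alb, Fgb and Cyp7a1, typical of the liver.

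For 18 textbook targets of GATA factors in gut and stomach, 6 were higher in stomach, 0 in esophagus and 12 did not pass, with a median of -0.27. Both trefoil peptide genes were among them. Tff2 had 4.84, 4.78 and 4.80 in esophageal and 17.62, 17.73 and 17.48 in stomach organoids, at least 6350-fold (adjusted p 3.23e-08). Tff1 had 5.66, 5.67 and 5.30 against 17.88 on all 3 stomach arrays (adjusted p 3.23e-08). Only 1 of 3 esophageal arrays was well above background for it, and its stomach values did not vary, so no fold is given. Atp4a, the alpha subunit of the gastric proton pump, was at least 1.94-fold higher in stomach (-0.99, adjusted p 0.0177). Atp4b, its beta subunit, and Lct and Sis, intestinal disaccharidases, were not well above background on any of the arrays. Without esophagus array 1 or 4, 1 gene of this list was higher in esophagus, and under the methods' rule 2 were.

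**Figure D5:**
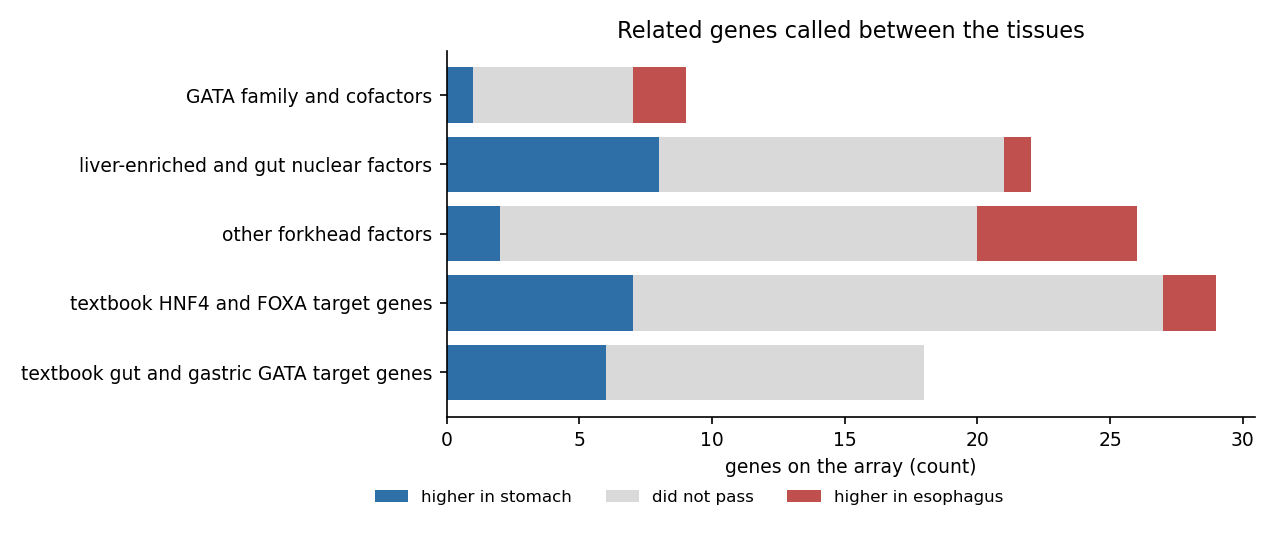
Genes on the array (horizontal axis, count) in each list of related genes, divided into those higher in stomach (blue), those that did not pass (gray) and those higher in esophagus (red) at an adjusted p under 0.05 in limma. The GATA family list has 1, 6 and 2 genes, and the GATA target list 6, 12 and 0.

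Some genes of the marker lists for other tissues and cell types were also higher in stomach organoids. A single such gene does not identify a cell type. Of 14 intestinal and liver markers, 5 were higher in stomach, Vil1, Lgals4, Cdx2, Ttr and Isx, and the summed linear signal of the list was 776 to 1560 in esophageal and 43000 to 57600 in stomach organoids, while Cdx1, Sis, Lct, Alb and Cps1 were not well above background on any of the arrays. Of 13 mesenchyme and mesothelium markers, 2 were higher in stomach, Msln and Upk3b, and the summed signal was 392 to 487 against 85500 to 107000. Msln, well above background on 1 of 3 esophageal arrays, made up 99.5% to 99.6% of that sum in stomach organoids. Lum, Pdgfra, Pdgfrb, Myh11, Des and Wt1 were not well above background on any of the arrays. Of 12 immune and endothelial markers, 2 were higher in stomach, Cd14 and Vwf (1 without any array but stomach array 4, and 1 with the mouse as a block), with sums of 4920 to 29500 and 6400 to 8540. Cd68, the brightest of the list in esophageal organoids, had 14.77, 12.94 and 11.80 there and did not pass (limma adjusted p 0.211). Ptprc and Adgre1 were not well above background on any of the arrays. Of 8 enteroendocrine markers 0 passed, in limma or under the methods' rule. The part of other cell types in the members' values was not tested.

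By the distance between log2 values centered on their own mean, over 6 arrays and 25835 features, the genes most like Hnf4a were 0610040J01Rik (0.373), Ugt2b34 (0.456) and Cybrd1 (0.47). Those most like Gata6 were Lrrc66 (0.41) and Lcp1 (0.434). Foxa2, by its second feature, had Aspa (0.337), Atp1b1 (0.4) and Gjb1 (0.444). Nearest to Foxa1 were Selenbp1 (0.254), a feature of an unnamed interval of chromosome 3 (0.255) and Abcc5 (0.271). The 6 arrays fall into the 2 tissues, so any gene with a like tissue difference lies near. The distances are a description with no test.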

How the data were processed

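RNA of 6 organoid samples, 3 per tissue, was hybridized to Agilent SurePrint G3 Mouse 8x60K arrays. The software behind the scanner files was Agilent Feature Extraction (11.5.1.1 per the file headers). The deposited scanner files hold raw spot and background intensity with flags. In the deposited log2 table the authors had applied a background correction and quantile normalization, and its 2029 empty cells are the 2029 outlier-marked spots. The log2 table gave the main values. The offset behind it is not given in the sources used here, and an offset changes the size of differences of dim features.

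Each array has 62976 spots, 3671 of them controls. Values of non-control spots were averaged per feature, joined by feature number. In R 4.3.3 with limma 3.58.1, esophagus and stomach arrays were compared by lmFit and eBayes on all 6 arrays, with no block, two-sided, with Benjamini-Hochberg adjustment over 55681 features, called at an adjusted p under 0.05. The fit was also run on simulated data, which checks the code and not the results given here. Alternatives recomputed from scanner intensities used normexp with offsets of 16 and 50 or the 75th percentile of the processed signal. The number of arrays limits the precision.

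The members and lists were chosen with earlier results of these data known. Named genes are all 8 members, the 2 largest called changes in each direction of each related list, and the 3 nearest genes of 4 members; other names were chosen after their values were seen, as was the search for shared stretches. Values of some genes that this rule names are not reported here, though counts of the lists include them. A gene in a list is read by its brightest feature. Mouse numbers in the labels pair the arrays by animal, and same-mouse deviations correlated with r = 0.042, 0.023 and -0.002 across 25835 features, against -0.091 to 0.040 between mice. RefSeq (GRCm38.p6) matched all 8 members and was used for names and promoter windows, never for array coordinates.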

Additional observations from a re-analysis of the deposited data

How the results depend on the processing

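Of 17 alternatives (other background corrections and scalings, a filter on dim features, other variance models, gene averaging, blocking by mouse or by slide, each array left out, and the methods' rule), 15 were distinct, since the slide block, the fit within slide 1 and the fit without esophagus array 4 gave the same values. Over these, 133 of 135 recomputed differences of member features kept direction and call, and 0 reversed. Both exceptions were Hnf4g, without stomach array 1 (-0.80) and without stomach array 2 (-0.83), and the count of features higher in stomach then fell from 8 to 7, so that leaving out 1 array gave 7 to 8. The count higher in esophagus was 0 throughout. With the mouse as a replicate block, pairing the arrays, 8 member features passed, with adjusted p 0.0251 for Hnf4g, 0.00109 for Foxa1 and 0.549 for Gata5. The block changed no member's call, and took from 2 to 1 the counts of GATA cofactors and of HNF4 and FOXA targets higher in esophagus and of immune and endothelial markers higher in stomach. Within slide 1, Hnf4g differed by -0.74 (adjusted p 0.0283). The processed signal scaled to the 75th percentile, which replaces background correction and normalization together, moved the median of all features from 0.02 to 0.19 and enlarged Gata4 to -10.82 and Hnf4a to -12.61, while an offset of 50 reduced them to -6.83 and -8.70. Gata5 ranged from 0.03 to 0.37, with adjusted p from 0.468 to 0.966. Over the 15 distinct alternatives, 279 of 330 recomputed counts of list genes stayed within 1.5 times. Background signal limits the sizes for the 7 features, of 6 members, that were dim in esophagus, and 3 arrays per tissue limit small differences such as that of Hnf4g.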
